A study of Mus musculus with 13 samples.

Results

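The translation initiation and elongation factors of mouse oocytes were followed through meiotic maturation, with and without the long noncoding RNA Sirena1. Members were taken by name alone: genes of the count table whose symbol opens with Eif or Eef and a digit. Of 79 such symbols, 10 pseudogenes and 6 genes of other function (4 eIF2 kinases, an eIF4E transporter and an oocyte eIF4E paralog) were left out. That gave 63 members of 54232 genes, of which 58 had enough counts to be tested. The 5 others were at or near 0 counts: Eef1a2, the muscle and neuron form of eEF1A, had 0 counts in every library; Eif2s3y and Eif2c5, an older Argonaute symbol, had 1 count each in GV WT replicate 1; Eif4ebp3 had 5 counts, all in GV Null replicate 2; Eef1akmt3 had 0 to 4 counts.

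RNA came from pools of 25 cells. Germinal vesicle (GV) oocytes are fully grown and arrested before meiosis resumes, and were collected in medium with 0.2 mM IBMX, which holds that arrest. Metaphase II (MII) eggs are matured, and were collected 12 to 14 h after hCG. The 4 groups were GV wild type (WT, n = 3), GV Null (n = 3), MII WT (n = 3) and MII Null (n = 4), all labelled strain C57BL6/J, while the growth protocol names superovulated C57Bl6/J or C57BL/6NCrl females. Null females carry a Cas9 deletion of the Sirena1 promoter on both alleles. The deletion was made in zygotes, and carriers were bred to C57BL/6NCrl before homozygous females were raised. Founder lines, ages and any females shared by pools were not given in the sources used here, so p-values measure the spread between pools.

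Protein synthesis starts when eIF4F binds the mRNA cap and unwinds the leader. eIF3 joins it to the small ribosomal subunit, which carries eIF1, eIF1A and the eIF2 complex with the initiator tRNA, and scans for the start codon. eIF5 and eIF5B then release the factors and join the large subunit. In elongation eEF1A brings each aminoacyl-tRNA, the eEF1B complex recharges eEF1A with GTP, and eEF2 moves the ribosome on. A fully grown oocyte has stopped transcribing, so maturation runs on stored mRNAs, some of which are deadenylated and degraded while others are polyadenylated and translated.

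Total counts per library ran from 30867614 to 41285507. Sirena1 was at 3006 ± 90.2 CPM (reads scaled to library size, SD, n = 3) in GV WT, 24.8 ± 1.58 (n = 3) in GV Null, 4519 ± 221 (n = 3) in MII WT and 41.3 ± 4.41 (n = 4) in MII Null. All 12 listed oocyte markers were above 0 in every library, with summed levels of 11996 to 16496 CPM. The summed level of 21 cumulus and granulosa markers, the follicle cells around the oocyte, was 291, 810 and 437 CPM in GV Null replicates 1 to 3, against 275 to 299 CPM in GV WT and 344 to 377 CPM in the MII libraries. Most of the sum in WT was Serpine2, Nr5a2 and Cyp19a1, each higher in MII WT than in GV WT. Serpine2 alone was at 163 to 175 CPM in GV WT and 233 to 248 in MII WT. Inha, Inhbb, Foxl2, Amh and Fst were above 0 in every GV WT library and at 0 in every MII WT library. The sums therefore do not rank the stages by follicle cell RNA. Among MII libraries, 12 to 14 of the 21 were above 0, except 19 in MII Null replicate 4. Levels below are CPM scaled by the TMM method and differences are log2 fold changes. Both are relative to the rest of the library. RNA was labelled poly(A) RNA, so fewer copies and shorter poly(A) tails cannot be told apart, nor can a change in total RNA per cell.

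The complexes of the family did not move together through maturation. From GV to MII in WT, 10 of 14 eIF3 members, the 3 eEF1B exchange subunits and 3 of 4 eIF1 and eIF1A scanning factors were lower. The mRNAs of eEF1A, eEF2, eIF5 and 6 of 10 eIF4F members did not pass the test, and Eif5a was higher. Of 58 members, 25 were lower (43.1%) and 9 higher (15.5%) at an adjusted p under 0.05 in edgeR's quasi-likelihood test. Among all 20143 genes tested, 22.8% were lower and 19.9% higher. At least 2-fold lower were 14 members (24.1%), against 14.5% of all genes. Among genes with a mean of at least 5 CPM over the groups, 21 of 50 members were lower (42%), against 22.9% of all such genes. The median difference was -0.21 over the members and 0.005 over all genes. With libraries scaled to their totals and no TMM factor, maturation differences moved down by 0.20 in WT and 0.23 in Null at the median of all genes. Members then split 2 higher and 35 lower in WT, and all genes 1831 higher and 5898 lower. All 25 WT falls were called under both scalings, while most of the small rises were not, as given beside each.

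Null eggs gave a separate set of libraries for the same step, with no library in common. There 25 members were lower and 10 higher, against 26.9% lower and 22.1% higher among all genes. An alternative fit left out GV Null replicates 2 and 3, which had the highest cumulus marker sums. It keeps 1 GV Null library, so a call lost there may only mark fewer libraries. Of the calls with all libraries, 21 were lower in both genotypes, 9 were higher in both and 0 went opposite ways. Those 30 are 88.2% of the 34 WT calls and 85.7% of the 35 Null calls. Called in WT only were Eef2k, Eif2b5, Eif3c and Eef1akmt4, and in Null only Eif4ebp1, Eif2b3, Eif3l, Eif4a1 and Eef1akmt2. For none of these 9 did the genotype difference between stages pass the test, and several were called in the other genotype under an alternative, as given beside each. Across the 58 members the WT and Null differences had a Pearson r of 0.95 and a Spearman rho of 0.96, given as a description across genes. Shared calls and correlations were not computed over all genes, so they are not shown to be particular to the family.

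**Figure D1:**
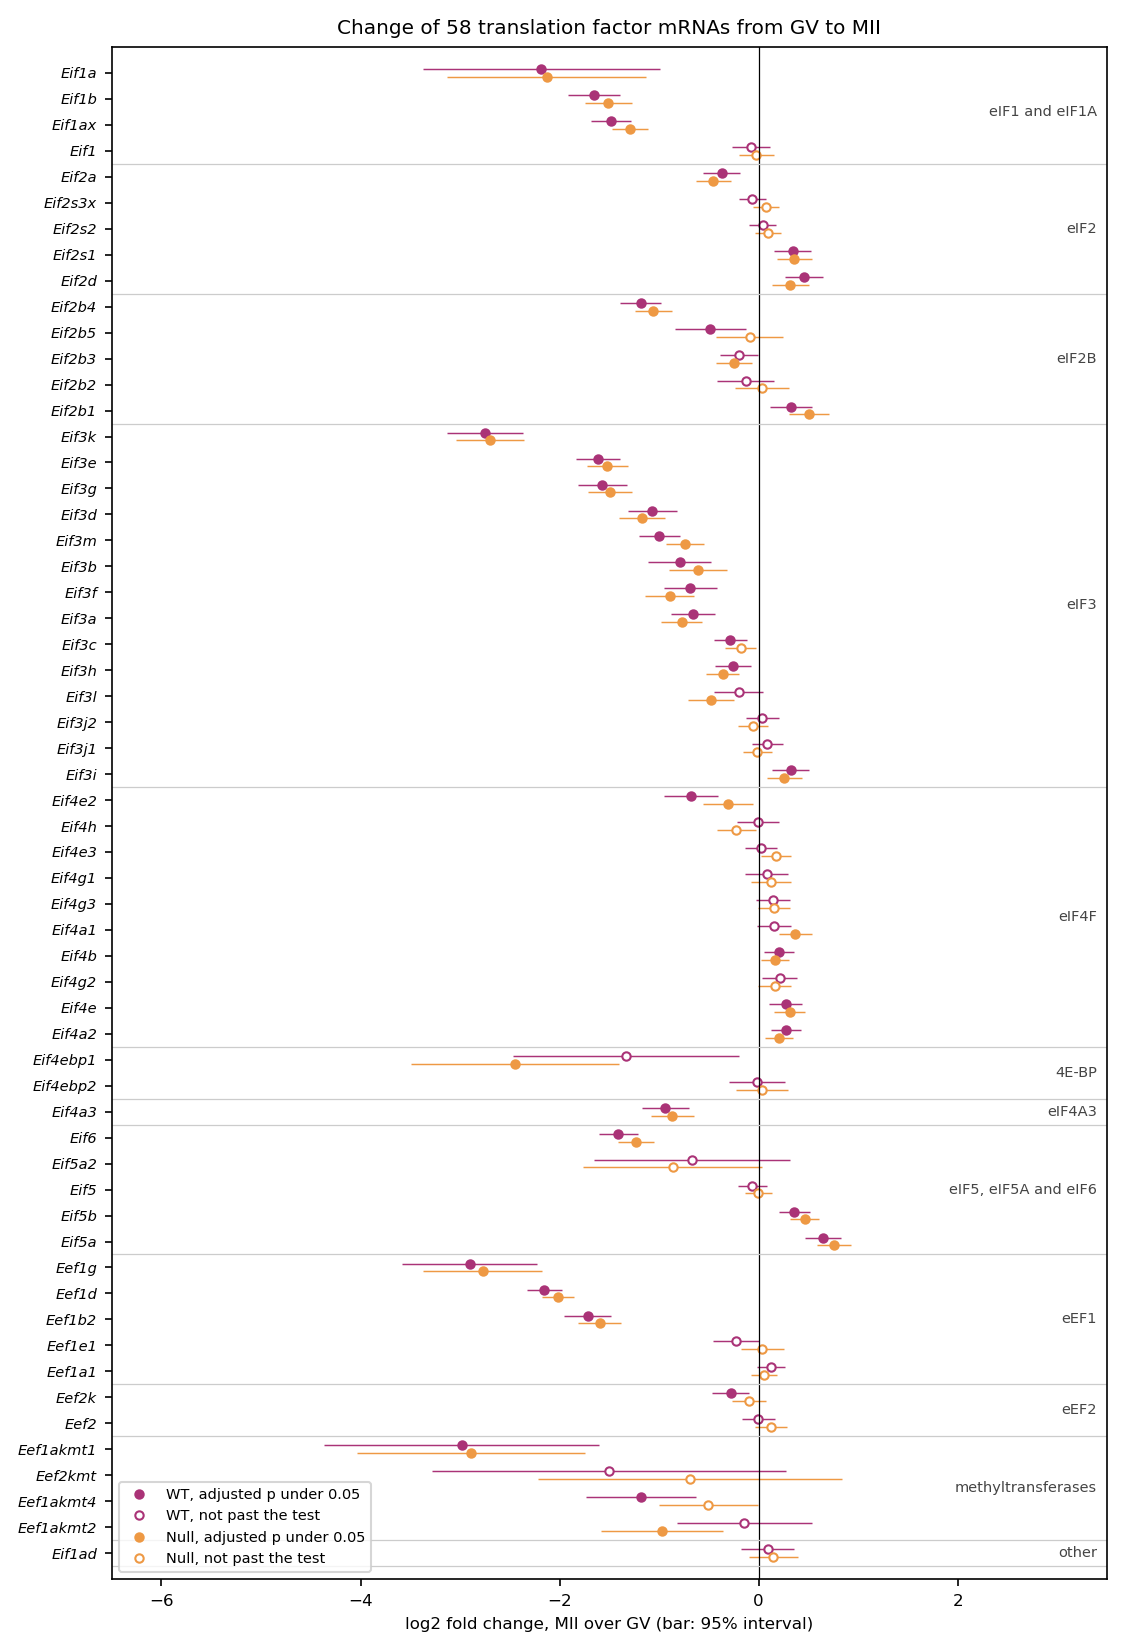
Log2 fold change from GV to MII (x axis) of the 58 tested members, grouped by role, in WT (purple) and Null (orange); bars are 95% intervals of the edgeR fit and filled points have an adjusted p under 0.05. Most eIF3 members and 3 of the 5 eEF1 members lie left of 0 in both genotypes, while most eIF4F members lie close to 0; every point would lie about 0.2 further left with libraries scaled to their totals.

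The scanning factors came first in the order of assembly. Eif1ax, the X-linked eIF1A gene, which helps the small subunit scan, was at 132, 128 and 129 CPM in GV WT and 49.0, 44.6 and 45.5 in MII WT. The Null libraries gave 143, 114 and 122 CPM in GV and 57.4, 45.9, 50.2 and 51.8 in MII. No MII library reached any GV library. The difference was -1.48 (SE 0.09, adjusted p 1.06e-09) in WT and -1.30 (SE 0.09) in Null. Eif1b, a paralog of eIF1, which guards start codon choice, went from 110 ± 5.73 to 34.9 ± 2.69 CPM (SD, n = 3 each), a difference of -1.65 (SE 0.13). Eif1 itself was at 116 ± 4.84 and 110 ± 5.78 CPM and did not pass the test (-0.08, 95% interval -0.27 to 0.11), but was called lower with library totals alone (-0.28, adjusted p 0.0222). Eif1a, an autosomal eIF1A gene, fell at low level, from 1.52, 2.11 and 2.72 CPM to 0.695, 0.276 and 0.413 (-2.18, SE 0.56). In Null its GV levels were 1.82, 4.85 and 4.56 CPM, highest in the libraries with the highest cumulus marker sums. Without GV Null replicates 2 and 3 its Null fall of -2.13 became -1.09 (adjusted p 0.201). The part of other cells in it was not tested further. Eif1ad, which carries an eIF1A-like domain, did not pass the test.

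Of the eIF2 group, which delivers the initiator tRNA, no core subunit was called lower in the test over all 20143 genes. Eif2s2 (beta subunit) was at 331 ± 8.57 CPM in GV WT and 340 ± 8.92 in MII WT. Eif2s3x (gamma subunit) was at 163 ± 2.45 and 156 ± 0.603 CPM. Neither passed the test, with 95% intervals of -0.10 to 0.18 and -0.20 to 0.07. With library totals alone they differed by -0.16 (adjusted p 0.0266) and -0.26. Eif2s3x was also called lower with a filter of 5 CPM (-0.16, adjusted p 0.0249). Eif2s1 (alpha subunit), the site of stress phosphorylation, was 0.34 higher (adjusted p 0.0041) and with library totals alone 0.14 higher (adjusted p 0.201). Its Null difference of 0.36 became 0.13 (adjusted p 0.177) with library totals alone, and 0.28 (adjusted p 0.103) without GV Null replicates 2 and 3. Eif2a, an alternative carrier of the initiator tRNA that is not a subunit of eIF2, fell by 0.37 on the log2 scale. Eif2d, a factor of ribosome recycling and re-initiation, was at 28.1, 28.4 and 28.4 CPM in GV WT and 37.9, 38.5 and 40.1 in MII WT. It was 0.46 higher, and 0.26 higher (adjusted p 0.0325) with library totals alone. In Null eggs the difference was 0.32, and 0.09 (adjusted p 0.409) with library totals alone or 0.37 (adjusted p 0.055) without GV Null replicates 2 and 3.

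Subunits of eIF2B, the 5-part complex that recharges eIF2 with GTP, did not move together. Eif2b4 (delta) fell from 34.3 ± 1.45 to 15.1 ± 0.587 CPM (-1.18, SE 0.10), and by 1.06 in Null. Eif2b1 (alpha) went from 158 ± 3.89 to 198 ± 15.5 CPM, 0.32 higher in WT (adjusted p 0.015) but 0.12 (adjusted p 0.314) with library totals alone. That WT call was also lost without GV WT replicate 3 (0.31, adjusted p 0.0568), MII WT replicate 1 (0.30, 0.055) or MII WT replicate 2 (0.28, 0.0715). The Null difference was 0.50, and 0.28 (adjusted p 0.0124) with library totals alone. Without GV Null replicates 2 and 3 it was 0.21 higher (adjusted p 0.106). Eif2b5 (epsilon), the catalytic subunit, was 0.48 lower in WT (adjusted p 0.0282). The call was lost without GV WT replicate 1 (-0.48), GV WT replicate 3 (-0.42), MII WT replicate 1 (-0.51) or MII WT replicate 3 (-0.33). Eif2b3 (gamma) differed by -0.20 in WT (adjusted p 0.0953) and by -0.25 in Null (adjusted p 0.0226), the latter lost without GV Null replicate 1 (-0.18), with the replicate block (-0.22, adjusted p 0.0607) or with no filter on low counts (adjusted p 0.116). In WT it was called with a filter of 5 CPM (-0.30, adjusted p 0.00895) and in the fit of the WT libraries only (-0.24, adjusted p 0.0307). Eif2b2 (beta) passed in neither genotype.

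Most eIF3 members fell. Of 14 members tested, 10 were lower (71.4%) and 1 higher in WT, against 22.8% lower among all genes, and the same counts held in Null. The median difference was -0.67 in WT and -0.68 in Null. Eif3k, a peripheral subunit (chr7:28971372-28981890), was at 42.9, 42.6 and 49.1 CPM in GV WT and 6.00 to 7.05 in the 3 MII WT libraries. Null libraries were at 46.5, 50.3 and 53.0 CPM in GV and 9.97, 7.07, 4.89 and 8.61 in MII. All 7 MII libraries lay under every GV library. It fell 6.72-fold in WT (-2.75, SE 0.18, adjusted p 4.62e-09) and 6.51-fold in Null.

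Eif3e, which is part of the octamer core, was at 89.9, 80.3 and 93.9 CPM in GV WT and 25.4, 27.4 and 33.5 in MII WT, a difference of -1.61 (SE 0.11). The pseudogene row Eif3s6-ps1, named for an older symbol of Eif3e, held 473 to 607 counts in GV WT and 77 to 93 in MII WT. How the counting shared reads between gene and copy was not stated. Eif3g, of the RNA-binding module that works in scanning, went from 78.1, 82.9 and 78.0 CPM to 29.5, 29.6 and 21.3 (-1.57, SE 0.12). Eif3d, which can bind the cap of some mRNAs, went from 24.1 ± 1.46 to 11.5 ± 1.15 CPM (-1.07, SE 0.12).

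Smaller falls were seen in other subunits. Eif3m went from 74.0 ± 2.71 to 37.0 ± 1.81 CPM, and differences were -0.79 for Eif3b, -0.69 for Eif3f and -0.66 for Eif3a, the largest subunit and scaffold. All 4 were called in Null too. Eif3h differed by -0.26 (adjusted p 0.0194), and its WT call was lost without GV WT replicate 1 (-0.25), GV WT replicate 3 (-0.21), MII WT replicate 1 (-0.22) or MII WT replicate 3 (-0.24). The Null difference was -0.36 (adjusted p 0.000938), and -0.31 (adjusted p 0.0595) without GV Null replicates 2 and 3. Eif3c differed by -0.28 in WT (adjusted p 0.00816), lost without MII WT replicate 3 (-0.24, adjusted p 0.0532), and by -0.18 in Null (adjusted p 0.0553). The Null difference was called without GV Null replicate 2 (-0.24), without GV Null replicates 2 and 3 (-0.34, adjusted p 0.0102), without MII Null replicate 1 (-0.19), 2 (-0.22) or 4 (-0.21), with a filter of 5 CPM (-0.30) and with library totals alone (-0.40).

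Eif3i, a beta-propeller subunit that sits with Eif3b and Eif3g, was the exception. It was at 52.9, 54.5 and 51.5 CPM in GV WT and 70.7, 64.5 and 63.2 in MII WT. That was 0.32 higher (adjusted p 0.00665), and 0.12 (adjusted p 0.316) with library totals alone. In Null it was 0.26 higher, and 0.03 with library totals alone. Eif3j1 and Eif3j2, near-identical copies of a loosely bound subunit whose reads may be split between them, did not pass the test in WT (0.09 and 0.04, or -0.11 and -0.16 with library totals alone). Eif3l, the partner of Eif3k, was at 69.6 ± 2.76 and 60.6 ± 8.78 CPM in WT (-0.20, adjusted p 0.182). Its WT fall was called without MII WT replicate 1 (-0.33, adjusted p 0.0464), with a filter of 5 CPM (-0.30) and in the fit of the WT libraries only (-0.24). It was lower in Null (-0.48, adjusted p 0.00132). Without GV Null replicates 2 and 3 that was -0.30 (adjusted p 0.164).

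**Figure D2:**
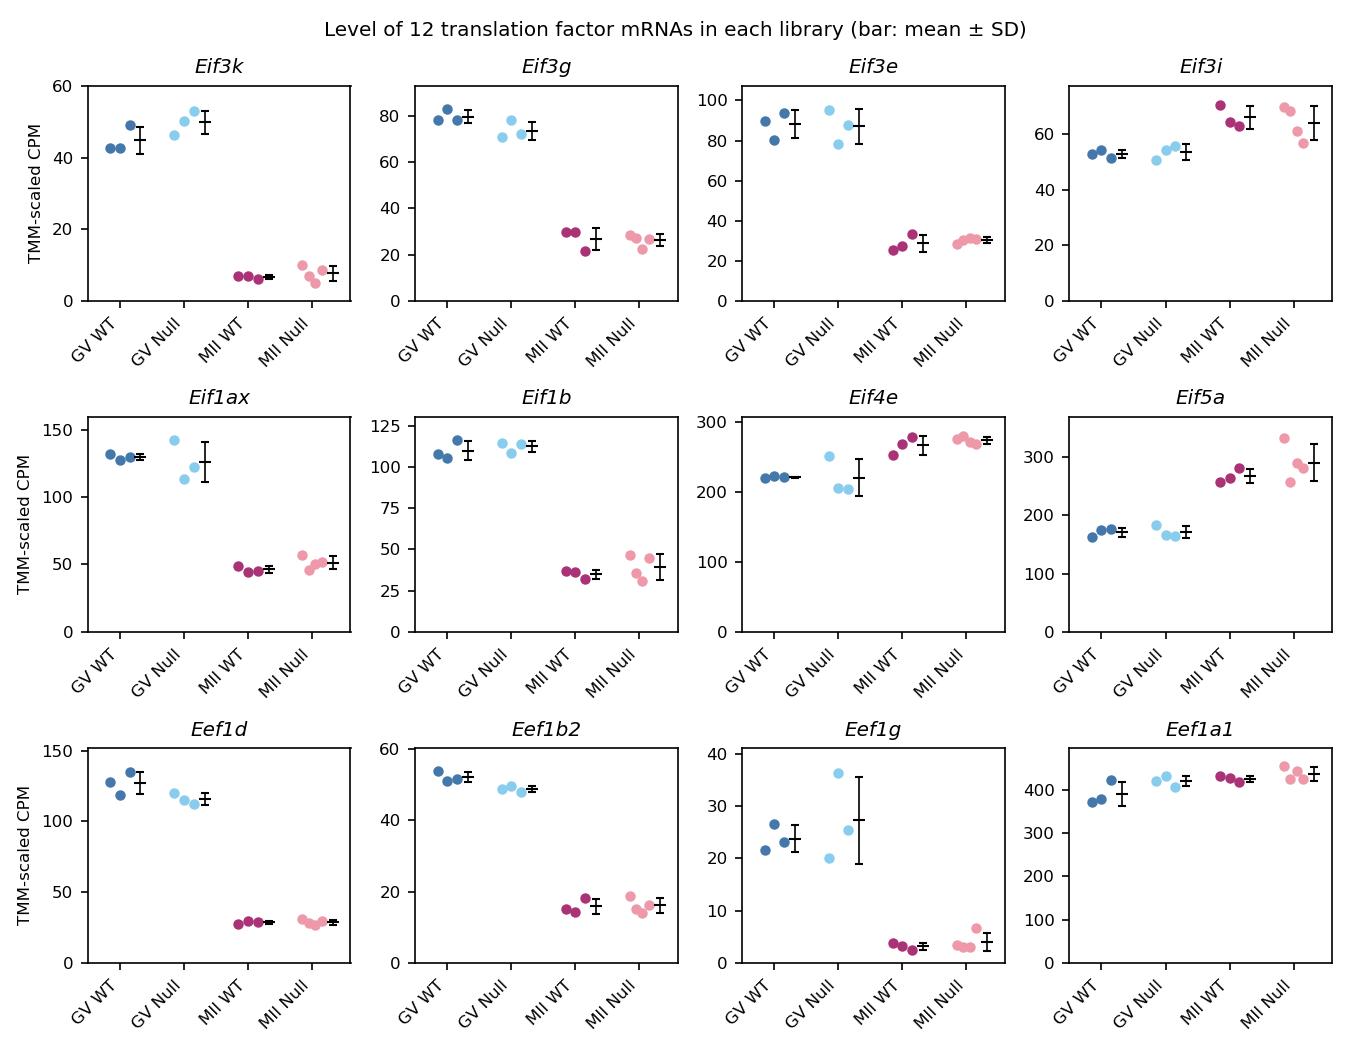
TMM-scaled CPM (y axis, from 0) of 12 members in each of the 13 libraries, 1 point per library, with the mean and SD of each group beside the points. For Eif3k the GV libraries lie between 42.6 and 53.0 CPM and the MII libraries between 4.89 and 9.97, while for Eef1a1 the stages lie close, at 372 to 432 and 419 to 456 CPM.

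The cap-binding eIF4F group and its helpers stood apart from eIF3. Of its 10 members 1 was lower (10%) and 3 higher (30%) in WT, against 22.8% and 19.9% of all genes. The median was 0.15. With library totals alone every difference here would be about 0.20 lower. Eif4e, the cap-binding protein, was at 220, 222 and 221 CPM in GV WT and 252, 268 and 279 in MII WT. It was 0.27 higher (adjusted p 0.00908), and 0.07 (adjusted p 0.445) with library totals alone. The Null difference of 0.31 was 0.09 with library totals alone and 0.12 (adjusted p 0.309) without GV Null replicates 2 and 3. Eif4a2, an RNA helicase, was 0.28 higher in WT, and 0.08 (adjusted p 0.389) with library totals alone. Eif4b, the helicase cofactor, was 0.20 higher (adjusted p 0.0274), and 0.00 with library totals alone. Leaving out any 1 of the 6 WT libraries also ended that call, with values of 0.19 to 0.22 and adjusted p of 0.0558 to 0.0906. In Null, Eif4a2 was 0.20 higher, a call lost without GV Null replicate 3 (0.14) or MII Null replicate 1 (0.17), 2 (0.16) or 3 (0.18). Eif4b was 0.17 higher there, lost without GV Null replicate 2 (0.18) or 3 (0.14) or MII Null replicate 1 (0.15), 2 (0.11) or 3 (0.12). With library totals alone these Null values were -0.023 and -0.061. Eif4e2, a cap-binding paralog tied to repression, was the 1 lower, from 15.7 ± 1.07 to 9.82 ± 0.828 CPM (-0.68, SE 0.13). In Null it differed by -0.31 (adjusted p 0.039), and by -0.18 without GV Null replicate 2 (adjusted p 0.282). That call was also lost without GV Null replicate 1 (-0.31), MII Null replicate 2 (-0.33) or MII Null replicate 3 (-0.30).

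The scaffolds did not pass the test: Eif4g1 went from 89.1 ± 2.64 to 94.1 ± 6.13 CPM, Eif4g2 from 563 ± 21.5 to 652 ± 59.2 and Eif4g3 from 229 ± 3.09 to 253 ± 11.9. Eif4g2 (0.21, adjusted p 0.0552) was called higher without MII WT replicate 3 (0.28, adjusted p 0.0211) and in the fit of the WT libraries only (0.17, adjusted p 0.0273). Eif4e3, another cap-binding paralog, was at 370 ± 7.62 and 377 ± 16.4 CPM (0.03), and -0.18 with library totals alone. Eif4h, a helicase cofactor, differed by -0.01. Eif4a1, the main eIF4A helicase, differed by 0.16 in WT (adjusted p 0.144) and 0.37 in Null (adjusted p 0.000775), the latter 0.14 (adjusted p 0.0949) with library totals alone. Its reads may be shared with the pseudogene row Eif4a-ps4, which held 2759 to 4323 counts. Eif4a3, a helicase of the exon junction complex rather than of eIF4F, fell from 120 ± 3.68 to 62.7 ± 8.80 CPM (-0.94, SE 0.11).

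The 4E-BP repressors bind eIF4E and keep it from eIF4G. Eif4ebp2 was at 31.7 ± 3.19 CPM in GV WT and 31.4 ± 4.42 in MII WT, and did not pass (-0.01, 95% interval -0.30 to 0.27). Eif4ebp1 was near the detection limit, at 0.403, 0.351 and 0.599 CPM in GV WT and 0.265, 0.138 and 0.127 in MII WT (-1.33, adjusted p 0.0551), and its fall was called without MII WT replicate 1 (-1.74, adjusted p 0.0445) and in the fit of the WT libraries only (-1.37, adjusted p 0.0317). In Null it went from 0.417, 1.13 and 0.632 CPM to 0.0953 to 0.186 (-2.45, adjusted p 0.000529). Without GV Null replicates 2 and 3, the libraries with the highest cumulus marker sums, that was -1.65 (adjusted p 0.107).

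Within a library the ratio of 2 sums does not depend on the scaling. The summed CPM of eIF3 members was 41.8% to 43.2% of the eIF4F sum in GV WT and 26.3% to 27.5% in MII WT. Null libraries gave 42.8% to 43.7% in GV and 24.8% to 27.4% in MII. No MII library reached any GV library. The exact permutation test of the WT step (two-sided) gave p = 0.1, the smallest that 3 against 3 allows. Long mRNAs weigh more in such sums, so the ratio is not one of molecules, and the change between stages is the measurement.

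At subunit joining and after it, Eif5a had the largest called rise of the family. It encodes eIF5A, the hypusine-bearing factor that helps ribosomes past difficult peptide bonds. It was at 162, 175 and 177 CPM in GV WT and 258, 265 and 282 in MII WT. The Null levels were 183, 167 and 165 CPM in GV and 333, 257, 291 and 281 in MII. Every MII library lay above every GV library. It rose by 0.65 in WT (SE 0.09, adjusted p 7.83e-06) and 0.76 in Null, and by 0.45 and 0.53 with library totals alone (adjusted p 0.000291 and 2.32e-05). A pseudogene row of the same family, Eif5al3-ps, held 240 to 304 counts in GV and 310 to 533 in MII libraries.

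Eif5b, the GTPase that joins the subunits, went from 559 ± 27.0 to 717 ± 27.8 CPM. It was 0.36 higher in WT, and 0.16 (adjusted p 0.0546) with library totals alone. In Null it was 0.47 higher, and 0.24 (adjusted p 0.00303) with library totals alone. Eif5, which triggers GTP hydrolysis by eIF2, was at 379 ± 12.3 and 362 ± 7.31 CPM (-0.06), and -0.27 with library totals alone (adjusted p 0.00152) or -0.16 with a filter of 5 CPM (adjusted p 0.0336). Eif6, which keeps free large subunits from joining, fell from 88.2, 89.2 and 99.6 CPM to 31.8, 34.9 and 37.4 (-1.41, SE 0.09, adjusted p 1.91e-09). Eif5a2, the second eIF5A gene, was at 0.652 ± 0.142 and 0.411 ± 0.117 CPM and did not pass.

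**Figure D3:**
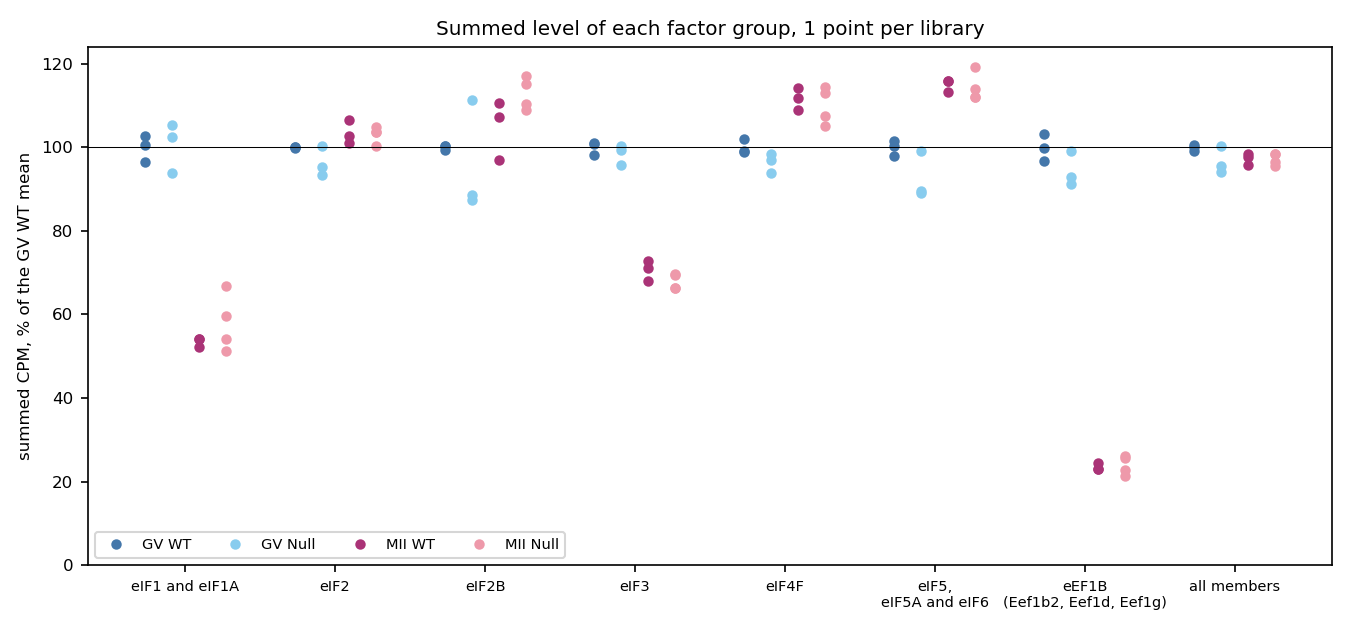
Summed CPM of each factor group in each library, as a percent of the GV WT mean (y axis, from 0), 1 point per library. The mean eEF1B sum of MII WT is 0.235 of that of GV WT, the MII points of eIF3 and of the eIF1 and eIF1A group lie below the GV points, and the sum over all members lies close to 100% in every group.

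Among elongation factors, the carrier and its exchange factor parted. Eef1a1, eEF1A itself (chr9:78478453-78481724), was at 372, 380 and 423 CPM in GV WT and 432, 428 and 419 in MII WT. The groups overlapped and it did not pass the test (0.12, 95% interval -0.02 to 0.26), and was -0.08 (adjusted p 0.344) with library totals alone. In Null it differed by 0.06, and by -0.17 (adjusted p 0.0205) with library totals alone. The 3 eEF1B subunits that return GTP to eEF1A all fell.

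Eef1d (chr15:75894796-75909784), a catalytic exchange subunit, was at 128, 119 and 135 CPM in GV WT and 27.7, 29.4 and 28.8 in MII WT. Null libraries held 120, 115 and 112 CPM in GV and 30.9, 27.8, 26.4 and 29.3 in MII. It fell 4.44-fold in WT (-2.15, SE 0.08, adjusted p 4.79e-12) and 4.04-fold in Null. Eef1b2, the other catalytic subunit, went from 53.9, 51.2 and 51.7 CPM to 15.2, 14.2 and 18.2 (-1.72, SE 0.11). Eef1g (chr19:8967041-8978180), the structural subunit, went from 21.5, 26.6 and 23.1 CPM to 3.78, 3.27 and 2.48 (-2.90, SE 0.31). Null levels ran from 20.04 to 36.3 CPM in GV, and were 3.33, 3.01, 2.96 and 6.62 CPM in MII (-2.77). Its high values were in GV Null replicate 2 and MII Null replicate 4. The former had the highest cumulus marker sum of its group. The latter had more such markers above 0 than others of its group, but its sum was not raised (366 CPM, against 369, 377 and 364). The part of follicle cell RNA in these values was not tested. The Null fall was -2.33 without GV Null replicates 2 and 3 and -3.16 without MII Null replicate 4.

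The summed eEF1B level was 49.5% to 54.6% of the Eef1a1 level in GV WT and 10.8% to 11.8% in MII WT. Null libraries had 44.8% to 46.6% in GV and 9.80% to 12.3% in MII. The stages did not overlap in either genotype, and scaling does not enter this ratio. Transcript length does, and how multi-mapping reads of Eef1a1 were counted was not stated. The ratio is therefore not one of molecules. In GV the Null libraries lay below the WT libraries, with p = 0.1 in the exact permutation test (two-sided), the smallest 3 against 3 allows. The exact permutation test (two-sided) also gave p = 0.1 for the eIF4F and eIF4A3 sums of GV Null against GV WT. This ratio was 1 of 18 sums and ratios. GV Null and GV WT libraries did not overlap for 12.8% of all genes, so the separation is not read as a genotype difference. Eef1e1, which despite its name belongs to the aminoacyl-tRNA synthetase complex, did not pass (-0.23, adjusted p 0.108), but was called lower with library totals alone (-0.43, adjusted p 0.00311).

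Eef2, the translocase, was at 199, 206 and 194 CPM in GV WT and 194, 197 and 207 in MII WT. The groups overlapped and the difference was 0.00 (95% interval -0.17 to 0.17), or -0.20 (adjusted p 0.0381) with library totals alone. Eef2k, the kinase that inactivates eEF2, was 0.28 lower in WT (adjusted p 0.0146) and 0.10 lower in Null, where it did not pass. The Null difference was called without MII Null replicate 1 (-0.19, adjusted p 0.0405), with a filter of 5 CPM (-0.22, adjusted p 0.0171) and with library totals alone (-0.32, adjusted p 0.00158). The WT call was lost without GV WT replicate 3 (-0.26), MII WT replicate 1 (-0.25) or MII WT replicate 2 (-0.27). The lysine methyltransferases of these factors were rare. Eef1akmt1 went from 0.672, 0.927 and 0.823 CPM to 0.232, 0 and 0.0635 (-2.98, SE 0.66), and was -4.48 without MII WT replicate 1. Eef1akmt4 went from 4.87 ± 0.240 to 2.15 ± 0.732 CPM (-1.18, SE 0.26), and was called lower in Null without MII Null replicate 1 (-0.75, adjusted p 0.0124) or with a filter of 5 CPM (-0.63). Eef1akmt2 and Eef2kmt did not pass in WT. Eef2kmt had 19 to 26 counts in the GV WT libraries and 2, 0 and 15 in MII WT, and was called lower without MII WT replicate 3 (adjusted p 0.0089). Eef1akmt2 was lower in Null (-0.97, adjusted p 0.0103), but -0.72 (adjusted p 0.0841) without GV Null replicate 2 and -0.58 (adjusted p 0.351) without GV Null replicates 2 and 3.

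Many mRNAs of the translation machinery open with a 5′ terminal oligopyrimidine (TOP) tract, a C at the cap followed by pyrimidines, through which mTOR and LARP1 control their translation. Of 9 members described as TOP mRNAs, 6 were lower (66.7%) and 1 higher (11.1%) in WT, with a median of -0.69. The same counts held in Null. Among all genes 22.8% were lower and 19.9% higher in WT, and 26.9% and 22.1% in Null. Lower were Eef1b2, Eef1d, Eef1g, Eif3e, Eif3f and Eif3h, all counted above among the eEF1B and eIF3 members. Higher was Eif4b, only by the main scaling, and Eef1a1 and Eef2 did not pass. The start windows are shown because members with a pyrimidine run near the annotated start did not all move the same way. Each window is 30 bases in RefSeq GRCm38.p6, 10 before the annotated start and 20 from it on, read along the gene's own strand. Capitals mark a C followed by at least 4 bases that are C or T. The members described as TOP mRNAs were these.
Eef1b2: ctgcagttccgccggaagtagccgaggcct
Eif3f: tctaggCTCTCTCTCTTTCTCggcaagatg
Eef1a1: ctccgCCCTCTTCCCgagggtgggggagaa
Eef2: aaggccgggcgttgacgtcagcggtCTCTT
Eif4b: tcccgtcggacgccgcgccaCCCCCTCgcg

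The windows lie at chr1:63176821-63176850 (+) for Eef1b2, chr7:108934405-108934434 (+) for Eif3f, chr9:78481705-78481734 (-) for Eef1a1, chr10:81176621-81176650 (+) for Eef2 and chr15:102073763-102073792 (+) for Eif4b. Of these 5, Eif3f fell (-0.69) with the longest run, while Eef1a1 (0.12) and Eef2 (0.00) have a run and did not pass. The runs of Eif3f and Eef1a1 begin before the annotated start and span it, and those of Eef2 and Eif4b begin after it. None begins at the annotated start, so a run in a window is not by itself a TOP tract at the cap. Eef1b2 fell (-1.72) with no run in this window, which says only that these letters are not there. For contrast, members outside the TOP list with a single entry and at least 5 CPM in 1 WT stage were taken. Those with the largest called falls in WT are shown. Of 4 rises picked the same way, only Eif5b is shown.
Eif3k: aaccggcgctggtgctgaaagcgCCTTTCC
Eif1b: gcgcggggctaaatacgcggcgccggccat
Eif3g: acccgggctgggagctgcgtggagttaaga
Eif1ax: ggaggagggcggggagaagccccgcccgct
Eif5b: ctgggttcccacctggccggcggctctact

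These lie at chr7:28981869-28981898 (-), chr9:120492596-120492625 (+), chr9:20898571-20898600 (-), chrX:159372168-159372197 (+) and chr1:37998000-37998029 (+). Of the 4 that fell, Eif3k alone has a run, and it begins after the annotated start. A run was present in 35.8% of 32851 RefSeq entries and in 30.5% of 59 entries of members, on the mRNA's own strand only. An entry existed for 48 of the 63 members and 5 of the 9 on the TOP list. Outside the TOP list, 19 of 49 members were lower (38.8%) and 8 higher (16.3%) in WT, with a median of -0.20. Among all genes 22.8% were lower and 19.9% higher.

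Genes of the same pathway outside the family were counted for comparison: release factors, poly(A)-binding proteins and their partners, mTOR signalling, and the enzymes that make hypusine and diphthamide. Of 45 listed, 42 were tested, and 16 were lower (38.1%) and 9 higher (21.4%) in WT, against 22.8% and 19.9% of all genes. In Null 12 were lower and 12 higher (28.6% each), against 26.9% and 22.1% of all genes. Tpt1, whose protein is described to bind eEF1A and eEF1B, fell from 129 ± 10.8 to 56.4 ± 3.20 CPM (-1.195, SE 0.10). Denr, a partner in recycling and re-initiation, fell from 7.24 ± 0.243 to 1.53 ± 0.424 CPM (-2.24, SE 0.22). The 2 poly(A)-binding protein partners went apart: Paip2, a repressor, fell from 290 ± 19.9 to 167 ± 20.9 CPM, and Paip1, an activator, went from 244 ± 6.15 to 365 ± 16.6 CPM (0.58, adjusted p 5.18e-06), before the shift of about 0.20 that library totals alone would give.

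Loss of Sirena1 left no member called at either stage. In GV oocytes 0 of 58 members passed the test, against 0.0546% of all genes, and in MII eggs 0 of 58, against 0.0546%. For the difference of the Null effects between stages it was 0 of 58, against 0.00496%. At an unadjusted p under 0.05 stood 1 member in GV (1.72%), 4 in MII (6.90%) and 1 in the difference (1.72%), against 6.66%, 6.35% and 3.38% of all genes. DESeq2 also called 0 in each. The median Null difference over members was -0.03 in GV and -0.003 in MII. The 95% intervals bound what may have been missed. Of 50 members with a mean of at least 5 CPM, all 50 had an interval within 1 log2 unit of 0 in both stages, and 47 in GV and 46 in MII within 0.5.

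**Figure D4:**
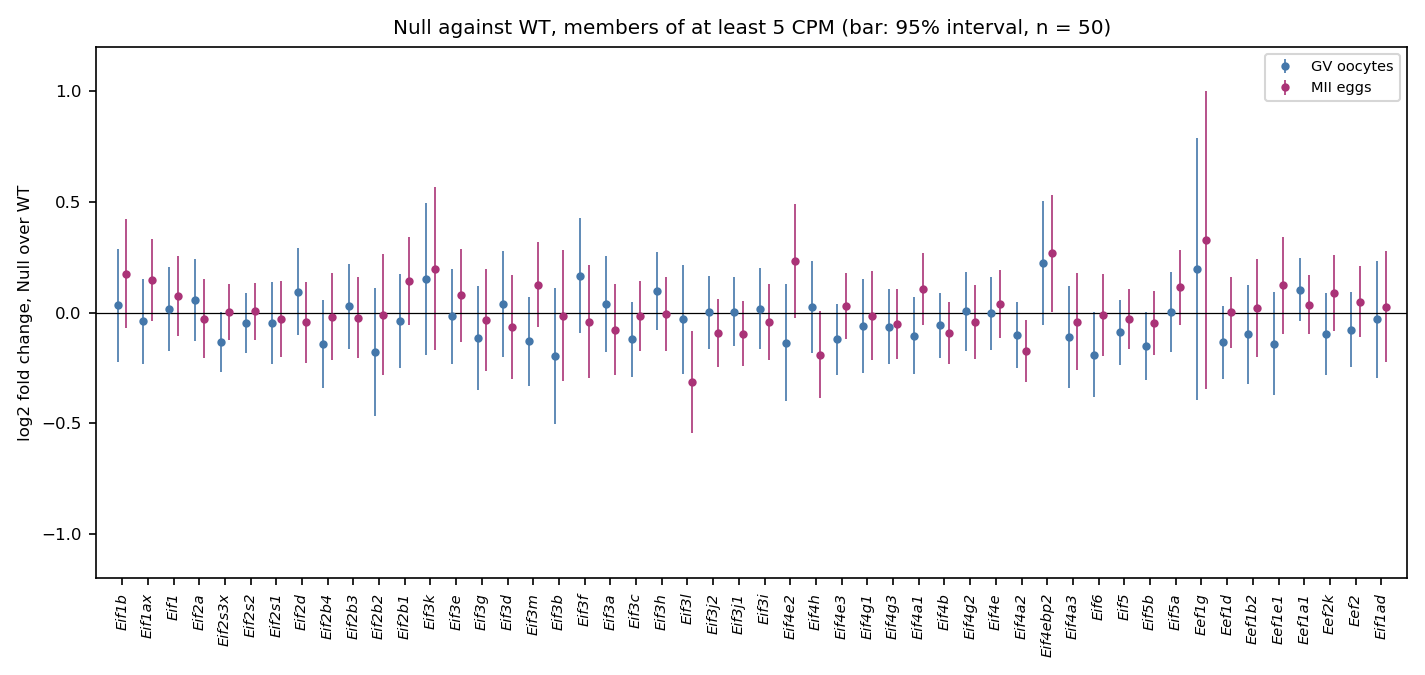
Log2 fold change of Null over WT (y axis) in GV oocytes (blue) and MII eggs (purple) for the 50 members with a mean of at least 5 CPM; bars are 95% intervals of the edgeR fit. Every interval lies within 1 of 0, and the widest are those of Eef1g.

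The members nearest to a difference were named by rule. In GV these were Eef1akmt2 at 1.38, 2.36 and 1.65 CPM in Null and 1.07, 1.10 and 0.948 in WT (0.78, adjusted p 0.708), then Eif6 (-0.19), Eif2s3x (-0.13) and Eif5b (-0.15). The Null libraries of Eef1akmt2 lay above all WT libraries. The highest was GV Null replicate 2, the library with the most cumulus marker RNA. The difference was 0.53 without that library and 0.40 without GV Null replicates 2 and 3. Without those 2, the other differences were -0.07 for Eif6, -0.05 for Eif2s3x and -0.07 for Eif5b. In MII they were Eif3l, at 52.6, 53.9, 39.8 and 49.0 CPM in Null and 70.7, 55.7 and 55.3 in WT (-0.31, adjusted p 0.686), Eif4a2 (-0.17), Eef1akmt4 (0.57) and Eif4ebp2 (0.27). Single libraries moved Eif3l, Eef1akmt4 and Eif4ebp2, while Eif4a2 stayed at -0.20 to -0.14 under every setting run. Eif3l was -0.18 without MII WT replicate 1, or -0.21 when MII Null replicate 3 was left out. Eef1akmt4 was 0.34 without MII WT replicate 3, or 0.37 when MII Null replicate 1 was left out. Eif4ebp2 was 0.16 without MII Null replicate 4. Eif4e2 had the smallest p for the difference between stages (0.37, SE 0.18, adjusted p 0.999). Libraries of Null and WT did not overlap in GV for 10 members (17.2%), against 12.8% of all genes, and in MII for 3 members (5.17%), against 6.07%. In GV the lower ones in Null were Eef1b2, Eif2s3x, Eif2b4, Eif4a3, Eif4a2, Eif4e3 and Eif6, and the higher ones Eif2d, Eef1akmt1 and Eef1akmt2. In MII, Eif3l and Eif4a2 were lower and Eif2b1 higher.

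The sum over all members was 6887 ± 49.6 CPM in GV WT and 6660 ± 219 in GV Null (n = 3 each, exact permutation p = 0.3, two-sided). It was 6699 ± 91.5 CPM in MII WT (n = 3) and 6700 ± 101 in MII Null (n = 4, exact permutation p = 0.943). The smallest p the designs allow is 0.1 for 3 against 3 and 0.0286 for 4 against 3.

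Replicates of members were tight in GV WT and less so elsewhere. The median coefficient of variation over members of at least 5 CPM was 3.74% in GV WT, 6.77% in GV Null, 5.88% in MII WT and 9.11% in MII Null. Eef1g had the highest in GV Null, MII WT and MII Null, and Eif2b2 in GV WT.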

How the data were processed

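RNA sequencing of 13 mouse oocyte pools was used. The authors deposited raw counts of reads for each gene (Ensembl 93 annotation), not normalized. The submitters' processing notes name STAR 2.5.3a, bedtools 2.26.0 and GRCm38.p6, with the counting tool, strand setting and handling of multi-mapping reads not given in the sources used here. Reads were 65 bp, single-end, from amplified poly(A) RNA, per the labels' protocols. A 0.2 pg Renilla luciferase spike-in has no row in the table, so levels are relative. Reads carry no molecular identifiers, and 3 counts were taken as the detection limit (counting error only).

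Symbols matched 54079 of 54232 gene IDs. Coordinates and start windows are RefSeq's for GRCm38.p6. edgeR 4.0.16 in R 4.3.3 fitted all libraries in 1 model of 4 groups (TMM, filterByExpr, robust glmQLFit, glmQLFTest, two-sided), with Benjamini-Hochberg adjustment over 20143 genes at 0.05. Fold changes carry the SE and 95% interval of that fit. The code was run on simulated counts drawn from the fit's own means and spreads, as a check of the code only. That run does not bear on the small differences given here. DESeq2 1.42.0, other filters and scalings, left-out libraries and the replicate block were alternatives.

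Named were members past the threshold for genotype, the 4 with the smallest p in each genotype comparison, members changed at least 2-fold in WT maturation with at least 5 CPM, the 3 with the smallest p and the 2 highest in each role list, all described TOP mRNAs and 4 other translation genes. Other members are given for completeness and were chosen after their values were seen. Members and lists were chosen with earlier results of these data known.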

Additional observations from a re-analysis of the deposited data

Results flagged for a closer look

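Eef1g in MII Null eggs stood out for 1 library. Replicate 4 was at 6.62 CPM, against 2.96 to 3.33 CPM in the other 3. Its gap to the nearest was 0.897 of the group's whole range, above Dixon's 95% limit for 4 samples. MII Null was the 1 group large enough for this check. It was run on 58 members and 18 sums and ratios, and chance flags about 1 in 20. Replicate 4 also had 19 of 21 cumulus markers above 0, against 13 or 14 in the other MII Null libraries. Their summed level was 366 CPM in replicate 4 and 364 to 377 CPM in the others. The part of follicle cell RNA in the Eef1g level was not tested.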

How the results depend on the processing

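No member was called for genotype, or for its difference between stages, under any alternative run. Scaling to library totals, chosen after seeing the data, moved maturation most. Members called higher fell to 2 in WT and 3 in Null, and medians to -0.41 and -0.43. Of all 20143 genes, those called higher fell to 1831 in WT and 1985 in Null. Among members called in either scaling, signs turned for Eif2s2 (-0.16) and Eif4e3 (-0.18) in WT, and for Eef1a1 (-0.17), Eif2s2 (-0.13), Eif2s3x (-0.15), Eif4a2 (-0.023) and Eif4b (-0.061) in Null. Signs also turned for 7 members in WT and 9 in Null that neither scaling called. TMM factors were 1.05 to 1.12 in GV and 0.904 to 0.957 in MII libraries. A filter of 5 CPM gave a WT median of -0.26 and 6 members higher in Null. Over all genes it called 6569 in Null in either direction, against 9867 in the main fit. A fit of only the groups compared gave a WT median of -0.26. Without GV Null replicates 2 and 3, which leaves 1 GV Null library, Null differences of single members moved, as given beside each. The cause of these moves was not tested, apart from the fewer genes or libraries that each of the last 3 settings holds.

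Leaving out 1 library at a time gave medians of -0.24 to -0.21 for WT maturation, 0.0048 to 0.045 for Null against WT in MII eggs and 0.052 to 0.118 for the difference between stages. Members called lower ran from 22 to 25 in WT and from 24 to 29 in Null, and members called higher from 7 to 9 and from 7 to 11. Calls over all genes, in either direction, moved too. They ran from 7274 to 7529 in WT, against 8609 with all libraries. In Null they ran from 8234 to 10217, against 9867. The fit with a replicate block called 9 members higher and 25 lower in WT, 11 higher and 25 lower in Null, and 0 for genotype. Over all genes that fit called 8752 in WT and 9872 in Null, in either direction. Same-numbered libraries correlated by -0.167 to 0.213. Differently numbered libraries were not correlated for reference, so these values do not settle whether the numbers mark pairs. The labels do not state that they do, and the main fit did not pair them. Falls of at least 2-fold in members of at least 5 CPM kept their call in WT under every setting run. Eif1a, Eif4ebp1 and the methyltransferases lie near the detection limit, and depth limits what their values can show.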
